A study of Mus musculus with 4 samples.

Results

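Wild-type (WT) mouse ES cells were compared in 2 media, serum and 2i + Vitamin C, across 628419 CpG sites. These were the positions listed once and read at least 10 times in both WT libraries, out of 981048 CpG sites read at least 10 times in any of the 4 libraries of the series. ES cells are pluripotent cells derived from the early embryo. The serum cells grew in media with 20% FCS and LIF, and the other cells grew for 1 week in 2i media with vitamin C. WT here means the cells that carry the chromosome 4 cluster of KRAB zinc finger genes, and Chr4-cl KO cells, which lack it after CRISPR/Cas9 deletion, were grown in the same media. Each of the 4 conditions was 1 library, so no difference has a replicate check, and a test on reads compares these libraries and not the media. The assay was RRBS-seq: MspI cuts the DNA at CCGG, and bisulfite then converts cytosines that carry no methyl group. The methylation level of a site is the share of its reads that were methylated, and a change is the level in 2i + Vitamin C minus the level in serum, in percentage points.

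In mammals, DNMT3 enzymes place new methyl groups on CpG sites and DNMT1, guided by UHRF1, copies them onto the new strand after replication. The TET enzymes oxidize methylated cytosine, and vitamin C is a cofactor that raises their activity. 2i media, which inhibit MEK and GSK3, keep ES cells in a naive state and lower genome methylation. Imprinted regions and many retrotransposons are known to resist such losses through KRAB zinc finger proteins and their partner KAP1.

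Read counts summed over CpG sites were 70149313 in serum and 90649194 in 2i + Vitamin C. A read that covers several sites is counted at each in these sums. The medians at the kept sites were 44 and 73 reads. The serum file was made of 2 tables joined end to end, and the 2i + Vitamin C file of 1 table. This difference and the medium cannot be told apart in WT cells. Among the Chr4-cl KO libraries the joined file was the 2i + Vitamin C one. At 28 mitochondrial sites, 3.34% of 927 reads were methylated in serum (95% Wilson interval 2.37 to 4.71) and 1.23% of 568 reads in 2i + Vitamin C (0.598 to 2.52). At 29143 sites with no methylated read among at least 50 in Chr4-cl KO serum, the mean levels were 1.19% and 1.33%. Differences of about this size between low levels were therefore not read as changes. Promoters of Pou5f1 and Sox2, which define pluripotent cells, were at 3.68% and 0.818% in serum and at 2.33% and 1.955% in 2i + Vitamin C. Those of Fgf5 and Nes, markers of primed and neural cells, were at 1.65% and 1.42% in serum and at 2.67% and 1.78% in 2i + Vitamin C. Promoter methylation did not separate these markers and so gave no check of the cell type.

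Some of the sequences behind the results are shown first, read from mm9 on the plus strand, with the CpG sites measured in both libraries in capitals. The Oxgr1 stretch, at chr14:120441819-120441872, comes from the promoter with the largest loss. The next, at chr16:48425699-48425987, comes from the 1-kb window with the largest loss. The last, at chrX:63291634-63291823, comes from a window that kept its methylation.
Oxgr1 promoter: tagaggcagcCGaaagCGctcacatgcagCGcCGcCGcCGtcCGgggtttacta
Window that lost most: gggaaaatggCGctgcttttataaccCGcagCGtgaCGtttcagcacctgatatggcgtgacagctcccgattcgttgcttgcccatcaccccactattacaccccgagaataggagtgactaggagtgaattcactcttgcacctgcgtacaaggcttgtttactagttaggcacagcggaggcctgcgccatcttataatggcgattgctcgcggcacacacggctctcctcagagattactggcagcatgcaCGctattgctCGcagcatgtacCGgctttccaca
Window that kept methylation: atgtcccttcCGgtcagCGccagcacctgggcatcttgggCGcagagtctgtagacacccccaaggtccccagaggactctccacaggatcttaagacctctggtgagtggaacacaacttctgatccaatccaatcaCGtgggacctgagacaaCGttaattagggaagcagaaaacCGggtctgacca

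The 7 measured sites of the Oxgr1 stretch lay between 81.2% and 100% in serum and between 0% and 16.3% in 2i + Vitamin C. The 7 sites of the chromosome 16 stretch lay between 93.3% and 100% in serum and between 0% and 10.1% in 2i + Vitamin C. In contrast, the 6 sites of the X chromosome stretch lay between 86.2% and 95% in serum and between 80% and 96.4% in 2i + Vitamin C. The stretches were chosen for their loss or for the methylation they kept, so these ranges illustrate the choice and are not a separate result.

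Methylation fell across the genome. The mean over the kept sites was 34.6% in serum and 17.2% in 2i + Vitamin C, a change of -17.3 points. The median site changed by -3.46 points, because most sites were low in both media: 57.5% of sites were under 20% in serum and 70.1% were in 2i + Vitamin C. Sites at or above 80% made up 26.9% of all sites in serum and 2.65% in 2i + Vitamin C. Sites between 20% and 80% rose in number from 15.6% to 27.2% of all sites. A site was called lost or gained when its reads differed by Fisher's exact test (two-sided, Benjamini-Hochberg adjusted p under 0.05) and its level differed by at least 20 points. By this rule 199693 sites (31.8%) were lost and 908 (0.144%) were gained.

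Among sites above 10% in serum, the bin with the highest serum levels had the highest remaining share. Sites at 20% to 30% in serum had a mean of 24.4% there and 5.89% in 2i + Vitamin C, so 24.1% of their level remained. Sites at 50% to 60% had means of 54.5% and 14.6%, with 26.8% remaining. Sites at 90% to 100% had means of 95.1% and 55.3%, with 58.2% remaining. These bins use the serum reads that also enter the share. With bins set by Chr4-cl KO serum, 54.95% remained at 10% to 20%, 35.8% at 20% to 30%, 26.4% at 50% to 60% and 56.4% at 90% to 100%, so the order of the low bins depended on the library that set them. The 169352 sites at or above 80% in serum fell from a mean of 91.5% to 49.3%, and 53.9% of their level remained. Their quartiles in 2i + Vitamin C were 33.3%, 48.6% and 64.9%. Of these sites 8.71% fell under 20%, and 9.68% stayed at or above 80%.

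**Figure D1:**
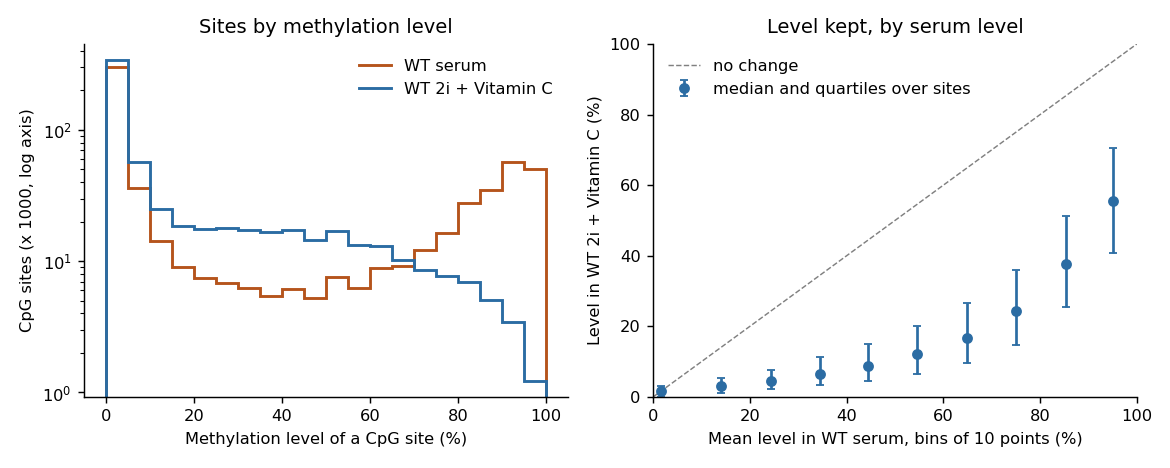
Left, the number of CpG sites (log axis, in units of 1000) in each 5-point bin of methylation level (%) in WT serum and WT 2i + Vitamin C. Right, the median level (%) in 2i + Vitamin C with quartiles over sites as bars, for bins of 10 points of the serum level; every bin from 10% upward lies below the dashed line of no change, and the highest bin has a median of 55.6%.

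Site classes differed mainly in how many of their sites were methylated in serum. Protein-coding promoters, from 1000 bp before to 500 bp after a transcript start, had a mean of 6.18% in serum and 3.86% in 2i + Vitamin C, and 5.27% of their 272466 sites were lost. Flanks, within 3000 bp of a start, fell from 29.1% to 12.9%. Exons fell from 57.3% to 24.9% and introns from 69.3% to 31.9%, with 60.6% and 67.9% of sites lost. Intergenic sites fell from 65.6% to 35.2%, with 53.6% lost. CpG-rich sites were low in both media. Where the surrounding 500 bp met island criteria (at least 55% GC and an observed to expected CpG ratio of at least 0.65), the mean was 2.83% in serum and 2.57% in 2i + Vitamin C.

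The remaining share, the mean level in 2i + Vitamin C as a percentage of the mean in serum, was compared between classes at sites at or above 80% in serum, so that classes started from like levels. Intergenic sites had the highest share of the 6 classes, 59.0% of 75082 sites' level, from 92.1% to 54.4%. Introns kept 51.02%, exons 48.7%, flanks 48.7% and protein-coding promoters 47.6%. The 150 such sites in lincRNA promoters kept 44.6%. CpG number within 500 bp moved the share little, from 53.5% with 11 to 20 CpG sites to 56.4% with 21 to 30.

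The number of copies of the surrounding 32 bases in the genome went with a larger difference. Sites with 1 copy kept 51.5%, sites with 2 to 9 copies 66.8%, and sites with 10 to 99 copies 68.9%. The share was lower again, at 59.3%, for sequences with 1000 copies or more. Reads from repeated sequence can be placed at the wrong copy, so the levels of single repeated sites are uncertain. At sites with 1 copy the intergenic share exceeded the exon share by 6.90 points, against 10.4 points over all sites.

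Regional base composition went with a gradient among the autosomes. Where the 100-kb bin around a site had at least 46% GC, 48.3% of the level remained, and the share was 52.5% at 42% to 44% GC and 66.9% at 38% to 40% GC. Below 38% GC it was 67.7%. Distance from the nearest protein-coding start, counted over all chromosomes, ran the same way, from 47.7% within 1 kb to 66.3% beyond 300 kb. GC, distance from genes and copy number are not independent, and their separate parts were not tested.

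Sites on the X chromosome kept more than those on the autosomes. Over 4931 X sites the mean fell from 93.2% to 64.0%, with 68.6% remaining, whereas 164286 autosomal sites fell from 91.4% to 48.9%, with 53.5% remaining. Single autosomes lay between 50.1% on chromosome 11 and 57.7% on chromosome 3. The excess was in intergenic and intron sites, which kept 73.1% and 66.2% on the X and 58.3% and 50.8% on the autosomes. Exon sites kept 45.6% on the X and 48.7% on the autosomes, and promoter sites 46.02% and 47.6%. X sites also lay in GC-poorer sequence. At like GC the gap was smaller: 73.2% on the X and 66.9% on the autosomes at 38% to 40% GC, and 47.8% and 48.3% at 46% or more.

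In bins of 1 Mb with at least 30 such sites, the remaining share ran from 27.7% to 91.3%, with a median of 52.7% over 1901 bins. The median was 71.7% over 73 X bins and 52.4% over 1825 autosomal bins. The X chromosome held both ends of the range. At chrX:3000001-4000000 the mean was 97.4% in serum and 89.0% in 2i + Vitamin C, and at chrX:137000001-138000000 it was 89.4% and 24.8%. Across the autosomal bins the share and mean GC had a Pearson r of -0.65, given as a description over bins that share both libraries.

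**Figure D2:**
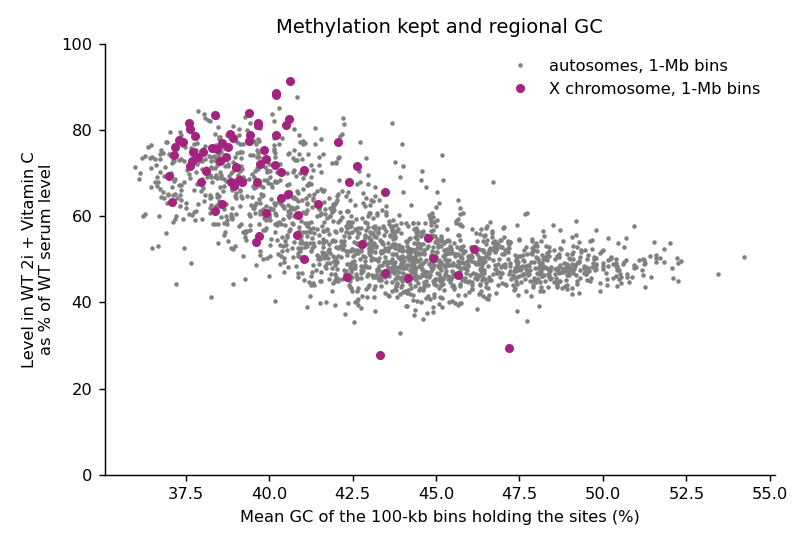
Each point is a 1-Mb bin with at least 30 CpG sites at or above 80% in WT serum. The vertical axis is the mean level in 2i + Vitamin C as a percentage of that in serum, and the horizontal axis is mean GC (%) of the 100-kb bins holding the sites; the share falls with GC on the autosomes (1825 bins) and on the X chromosome (73 bins), whose median of 71.7% is above the autosomal 52.4%.

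The bases next to the CpG also went with the share. Sites in the context ACGT fell from 90.4% to 40.5% and kept 44.8%, the lowest of the 10 strand-symmetric contexts. Sites in GCGC fell from 92.4% to 57.5% and kept 62.3%, the highest. At sites with 1 copy of their surroundings these shares were 44.2% and 59.99%. ZFP57, which holds KAP1 at imprinted regions, binds methylated TGCCGC. The 1246 sites in this motif (either strand), from 6647 sites in it at any level, kept 52.2%, and the sites outside it kept 54.0%. A match to the letters is a description of the sequence and not a bound site.

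The main contrasts between classes ran the same way in Chr4-cl KO cells, in which the joined and single files are reversed between the media. At 78862 sites at or above 80% in both serum libraries, 55.6% remained in WT and 49.8% in KO cells. Intergenic sites kept 61.4% in WT and 56.2% in KO cells, and exon sites kept 49.4% and 43.2%. The X kept 70.7% and 66.7%, and the autosomes 55.1% and 49.3%. ACGT kept 45.7% and 38.8%, and GCGC 63.9% and 57.1%. Some smaller contrasts were reversed at these sites: lincRNA promoters, with only 56 sites, kept 49.1% in WT and 39.7% in KO cells, and protein-coding promoters 48.4% and 42.4%. Over all kept WT sites at or above 80% in serum, lincRNA promoters kept 44.6% and protein-coding promoters 47.6%, the same order as in KO cells. The WT and KO shares have no replicates, so their differences could not be tested.

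**Figure D3:**
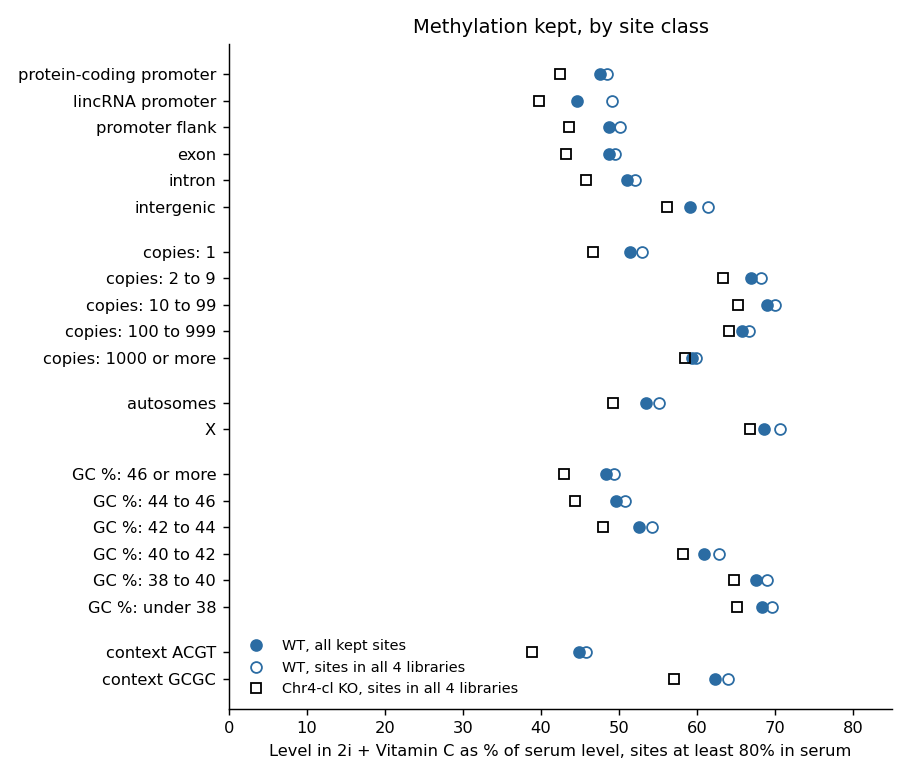
Level in 2i + Vitamin C as a percentage of the serum level, for sites at or above 80% in serum, by annotation, copy number of the surrounding 32 bases, chromosome, GC of the 100-kb bin and neighbouring bases. Filled circles are WT over all kept sites; open circles (WT) and squares (Chr4-cl KO) use sites in all 4 libraries at or above 80% in both serum libraries, and in each library pair intergenic, repeated, X and GC-poor sites lie to the right.

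Promoters were tested by pooling the reads of their kept sites. A read that covers several sites was counted at each of them, so pooled counts are not separate reads. The p-values of promoters and windows are therefore too small, and the intervals of promoters, windows and elements too narrow. Of 12425 protein-coding promoters with at least 5 kept sites, 755 (6.08%) were lost and none was gained, although 3753 were higher at an adjusted p under 0.05 with changes under 20 points. Most promoters had little to lose, since 86.8% were under 10% in serum. The promoter medians were 1.54% and 2.23%.

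Oxgr1, a receptor for 2-oxoglutarate, fell from 89.4% (95% Wilson interval 82.8 to 93.7) to 9.79% (7.19 to 13.2) over 8 sites. Its 123 and 378 reads are sums over sites, and the site at chr14:120441829 had 16 and 49. The promoter's loss was -79.6 points with a Fisher's exact test adjusted p of 5.31e-61, which treats the summed counts as separate reads. Tex13, a testis-expressed gene on the X chromosome, fell from 83.2% to 4.90% over 5 sites. Tanc1, a scaffold protein of synapses, fell from 83.0% to 7.39% over 15 sites and 2306 and 4454 reads. These sites lie between chr2:59544956 and chr2:59681609 and so at more than 1 start, and their means over sites were 67.6% and 11.4%. Every one of the 8 Oxgr1 sites and the 5 Tex13 sites was called lost on its own, as were 11 of the 15 Tanc1 sites. Of all kept sites 31.8% were lost. These promoters were chosen for large losses in the same reads, so the site calls are not separate support.

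The other promoters among the 10 with the largest losses covered several functions. Ghrh, which encodes growth hormone-releasing hormone, fell from 89.7% to 17.9%. Popdc2, a membrane protein of heart and skeletal muscle, fell from 88.9% to 17.3%, and Klb, a co-receptor for FGF hormones, fell from 80.7% to 9.74%. Dnajc5g, of the DnaJ chaperone family, fell from 81.6% to 8.91%. Iqcj fell from 94.7% to 21.3% and 1700018B08Rik from 84.5% to 11.96%. Fkbp6, a co-chaperone needed for meiosis, completed the set. In Chr4-cl KO cells Tanc1 was at 82.7% and 6.83%, and Popdc2 at 92.2% and 18.04%.

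At the other end, 295 promoters were at or above 70% in serum with at least 100 reads in each library, and their median remaining share was 40.6%, with quartiles of 30.1% and 50.3%. Slc7a15, of an amino acid transporter family, kept the largest share, 85.04%, but with only 129 and 136 reads (89.9% and 76.5%, adjusted p = 0.0114 by Fisher's exact test). Nap1l5, an imprinted gene expressed from the paternal allele, had 735 and 766 reads and kept 82.2%, from 93.7% (91.8 to 95.3) to 77.0% (73.9 to 79.9). Its 15 sites lay between 78.9% and 100% in serum and between 54.2% and 84.3% in 2i + Vitamin C. Of these 1 was called lost, against 31.8% of all kept sites. The promoters named here were chosen for high remaining shares in the same reads, so few lost sites are not separate support. Gm6327 kept 78.2% and Lime1, an adaptor of lymphocyte signalling, kept 73.9%. Usp9y, a deubiquitinase gene on the Y chromosome, kept 71.2%, and Olfr522, an olfactory receptor gene, kept 68.4%. 5430421N21Rik kept 67.8%. 3110070M22Rik kept 71.3% of its pooled level, but the means over its 51 sites were 54.2% and 45.6%. Its single sites ranged from 0% to 91.1% in serum, and 4 were called lost, against 31.8% of all kept sites. Gm10800 and Gm10801 kept 73.6% and 70.1%, but their reads came from repeated sequence, with 19868 reads in serum and 2668 in 2i + Vitamin C at Gm10800, and are uncertain.

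**Figure D4:**
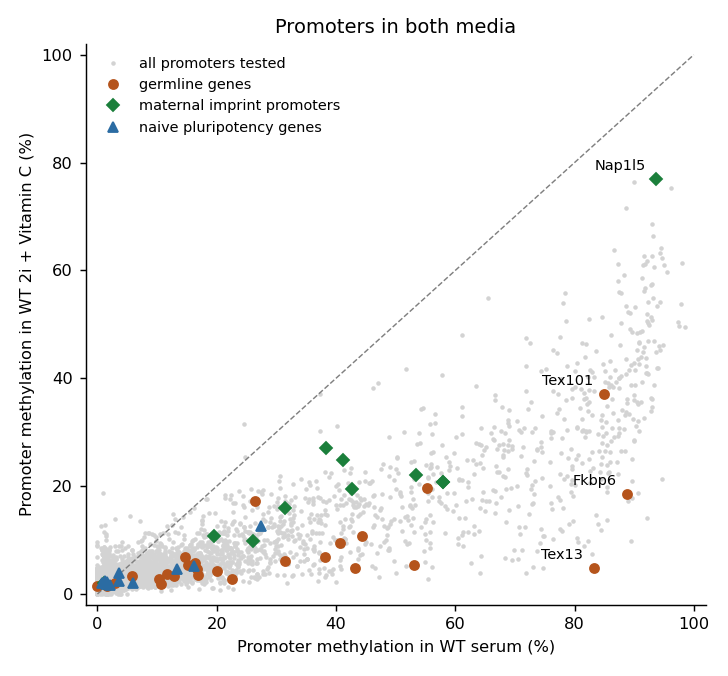
Methylation (%) of each of 12425 protein-coding promoters in WT serum (horizontal) and WT 2i + Vitamin C (vertical), with germline genes, maternal imprint promoters and naive pluripotency genes marked and the dashed line showing no change. Nap1l5 lies at 93.7% and 77.0% near the upper edge of the cloud, and Fkbp6 and Tex13 lie low at 18.5% and 4.90% in 2i + Vitamin C.

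Germline genes are expressed in germ cells and many are silenced by promoter methylation in other cells. Of 46 listed genes 27 had a measured promoter, and 10 were lost, against 6.08% of all promoters. Their median fell from 16.8% to 4.86%, while that of all promoters was 1.54% and 2.23%. Because 13 of the 27 were at or above 20% in serum, against 1068 of 12425 promoters, the list had more to lose, and 10 of those 13 were lost as were 755 of the 1068. Fkbp6, also among the promoters with the largest losses, fell from 88.9% (87.8 to 89.9) to 18.5% (17.0 to 20.0). Each of its 12 sites was lost, against 31.8% of all kept sites, of which 57.5% were under 20% in serum. Fkbp6 was among the largest losses in the same reads, so these site calls are not separate support. The synaptonemal complex genes Sycp1 and Syce3 fell from 40.7% to 9.54% and from 43.2% to 4.86%. Hormad1, of the meiotic chromosome axis, fell from 38.1% to 6.80%, and Stra8, which acts at meiotic entry, from 31.4% to 6.08%. Asz1, of the piRNA pathway, fell from 55.2% to 19.7%.

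Among testis genes, Tuba3a, an alpha-tubulin, fell from 53.1% to 5.38%, and Slc25a31, an ADP/ATP carrier, from 44.3% to 10.8%. Tex101, a surface protein of germ cells, kept the most of the 10 called lost: it fell from 84.9% to 37.0% with 5947 and 6469 reads, and 43.6% of its level remained. Dazl and Ddx4, both RNA regulators of germ cells, were at 16.8% and 11.7% in serum and at 3.47% and 3.73% in 2i + Vitamin C, under the 20-point threshold. Hormad2 at 22.6% and 2.81% was just under it. Sycp3 was at 26.4% and 17.2%.

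At maternally methylated imprint promoters only the maternal allele is methylated, so a level near the middle of the scale is the usual state. Of 19 listed genes 11 were measured and 4 were lost, against 6.08% of all promoters. Among those at or above 20% in serum 4 of 9 were lost, against 755 of 1068 promoters. The list's median was 41.2% in serum and 20.7% in 2i + Vitamin C. The lost ones were Mest (53.3% to 22.0%), Plagl1 (42.7% to 19.4%), and Peg10 and Sgce, which share their 11 sites (57.9% to 20.7%). Snrpn was at 38.3% (36.7 to 40.03) and 27.1% (25.6 to 28.6), so that 70.7% remained, and Nnat was at 41.2% and 24.9%, with 60.5% remaining. Grb10 was at 19.6% and 10.7%, Inpp5f at 26.1% and 9.79%, and Mcts2 at 31.5% and 15.9%. The Grb10 sites lie between chr11:11925922 and chr11:11938774, and the Inpp5f sites between chr7:135754897 and chr7:135831860. Both pools therefore come from more than 1 start and mix unlike sites, from 0% to 83.1% and from 0% to 64.3% in serum. Nap1l5, also on this list, was at 93.7% and 77.0%. Zrsr1 was at 1.06% and 2.11%. The KO line in serum had Plagl1 at 2.25% of 400 reads and Peg10 at 0% of 456 reads, far below WT. The count of 0 allows up to 0.658% if the reads pooled over sites are taken as separate. Of the paternally methylated loci, the starts of the non-coding genes H19 and Meg3 were outside the protein-coding promoter test. H19 fell from 91.5% (89.3 to 93.3) to 53.0% (50.4 to 55.6) over 2 sites, both called lost. Meg3 fell from 58.4% to 20.4% over 26 sites, 17 of them called lost. Of all kept sites, most of them low in serum, 31.8% were lost. The Rasgrf1 and Zdbf2 promoters were under 5% in both media. At these loci only sites from 1000 bp before to 500 bp after a start were used. The levels need not be those of the paternally methylated regions, which were not measured on their own.

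None of 13 measured naive pluripotency promoters was lost or gained, where 6.08% of all promoters were lost and none was gained. Of the 13, 10 were under 10% in serum, as were 86.8% of all promoters. Lefty1, an inhibitor of Nodal signalling, was at 27.4% and 12.5%, Sall4, a zinc finger factor, at 16.2% and 5.26%, and Esrrb, an orphan nuclear receptor, at 13.3% and 4.61%. All 15 measured primed and early differentiation promoters were under 10% in serum, and none was called. Beside the shares over all promoters, the counts of both lists are not particular to the genes. Some members of these lists with fewer than 5 kept sites were higher. Dppa3, a maternal factor of the early embryo, was at 63.8% of 58 reads and 10.9% of 46 reads over 4 sites, 3 of them called lost. Elf5, a trophoblast factor, was at 44.3% and 6.52% over 2 sites, both called lost. Cer1, a secreted inhibitor of Nodal and BMP signals, was at 91.5% and 51.3% over 3 sites, each called lost. Of all kept sites 31.8% were lost, and 57.5% were under 20% in serum, so these counts are not particular to the genes. Of 29 Hox promoters 1 was lost, which is no more than the 6.08% of all promoters. It was Hoxd3, from 30.3% to 7.57%. None of the listed genes of the 2-cell stage had a measured promoter.

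Among genes of the methylation machinery, 1 of 14 measured promoters was lost, a share near the 6.08% of all promoters. Tet3, which oxidizes methylated cytosine, fell from 31.9% (25.9 to 38.5) to 2.10% (1.14 to 3.82) over 6 sites. Of these 3 were called lost, against 31.8% of all kept sites. Tet1 was at 15.5% and 6.67%, Uhrf1 at 11.01% and 4.77%, and Dnmt3a at 13.6% and 5.90%. Dnmt1 was at 1.69% and 1.26%. Of 15 promoters of the KAP1 pathway 2 were lost, against 6.08% of all promoters: Chd3, a nucleosome remodeler of the NuRD complex, from 41.7% to 9.52%, and Atf7ip, a partner of the H3K9 methyltransferase SETDB1, from 25.5% to 2.30%. Setdb1 itself was at 1.76% and 1.603%.

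Windows of 1 kb gave a view without regard to genes. Of 37319 windows with at least 5 kept sites, 14045 (37.6%) were lost and 2 (0.00536%) were gained. The largest loss was at chr16:48425001-48426000, whose stretch is shown above. It fell from 98.6% (95.8 to 99.5) to 4.18% (2.72 to 6.36) and lies 5350 bp from the start of Morc1, in repeated sequence. The next was at chr16:29516001-29517000 within Atp13a4 (97.4% to 8.29%), with a median of 9 copies of the 32 bases around its sites. Windows within Adam19 (chr11:45926001-45927000), within 1700019D03Rik (chr1:52996001-52997000) and 5589 bp from Tollip (chr7:149110001-149111000) fell from 94.7% to 6.67%, 93.1% to 5.13% and 93.4% to 6.63%. The 1700019D03Rik window is also repeated sequence, so its level is uncertain.

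Among 10332 windows at or above 70% in serum, the median remaining share was 49.9%. In 387 of them at least 90% remained and in 99 less than 10%. The median was 72.8% over 291 X windows and 49.5% over autosomal ones. The window with the highest share, chr15:17504001-17505000, was at 78.9% (71.8 to 84.7) in serum and 88.7% (85.2 to 91.4) in 2i + Vitamin C, 796145 bp from the nearest protein-coding start. Its sites have a median of 148 copies of their 32 bases, so its level is uncertain, and in KO cells it was at 92.3% of 391 reads and 62.3% of 53. The X window shown above, chrX:63291001-63292000, was at 87.7% (81.8 to 91.9) and 89.4% (83.9 to 93.2), an interval overlap that leaves no difference detectable at 163 and 170 reads. The other windows with the highest shares were chr12:11992001-11993000 (77.0% and 79.4%), chr16:55054001-55055000 (84.1% and 85.8%) and chrX:53068001-53069000 (87.6% and 89.2%).

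Retrotransposons are copied sequences held silent in ES cells by KRAB zinc finger proteins, KAP1 and methylation. ETn and RLTR4 are endogenous retroviral elements with long terminal repeats (LTRs), and their internal regions were placed from the mm9 positions of the study's capture probes. The 285 sites in 69 ETn internal regions were at 90.9% in serum and 65.8% in 2i + Vitamin C, and 72.4% remained. The 203 sites in 20 RLTR4 internal regions were at 78.6% and 42.3%, with 53.8% remaining. At sites at or above 80% in serum the shares were 75.8% for ETn and 59.0% for RLTR4, against 53.9% for all such sites. Sites whose surrounding bases are not unique kept 66.3% and intergenic sites 59.0%.

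Single elements varied. Over 19 ETn elements with at least 5 sites the remaining share ran from 45.0% to 92.9% with a median of 83.0%, and over 18 RLTR4 elements from 17.1% to 90.7% with a median of 49.1%. The ETn element at chr2:14267319-14272239 fell from 94.3% (86.2 to 97.8) to 42.4% (34.1 to 51.2), while that at chr8:59285227-59290078 was at 93.8% (86.2 to 97.3) and 85.7% (75.7 to 92.0). Among RLTR4 elements, that at chr15:76390947-76396732 fell from 78.1% to 19.6%. The RLTR4 element at chr3:66900700-66907016 within Rsrc1 was at 93.9% (89.1 to 96.6) and 85.2% (80.8 to 88.7). The members of each family therefore did not share a single level in 2i + Vitamin C.

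Sites near copies of the binding sequences used in the study's reporter assays were also compared. Some of the sequences are given here, with CpG in capitals, because they come from families with high and low remaining shares.
IAPLTR1_Mm, bound by GM21082: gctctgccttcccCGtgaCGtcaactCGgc
IAPLTR4, bound by GM13157: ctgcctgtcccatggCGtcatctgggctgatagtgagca
RLTR13B1, bound by GM13152: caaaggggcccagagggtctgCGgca
ORR1A2, bound by ZFP617: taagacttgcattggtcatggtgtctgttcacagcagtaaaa

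Within 200 bp of a copy, 119 IAPLTR4 sites were at 92.8% in serum and 73.2% in 2i + Vitamin C, the highest share of these sequences at 78.9%. IAP elements are LTR retrotransposons known to resist demethylation. The 286 sites near IAPLTR1_Mm copies were at 92.4% and 66.6%, with 72.1% remaining, but within 100 bp of a copy 78 sites were at 89.6% and 43.5%, with 48.6% remaining. The proline primer binding site bound by ZFP809 had 173 sites at 88.5% and 68.5%, with 77.4% remaining. The lysine primer binding site bound by ZFP961 had 43 sites at 89.7% and 67.2%, with 74.9% remaining. The MMETn sequence bound by REX2 had 106 sites at 89.9% and 56.4%. In contrast, 35 sites near RLTR13B1 copies fell from 71.2% to 24.0% and 61 near ORR1A2 copies from 79.2% to 35.8%, with 33.8% and 45.2% remaining.

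Gained sites were few and had a particular position. Of the 908, 623 lay in protein-coding promoters, which is 68.6% of them against 43.4% of all kept sites. In 36.1% the site was 6 bp from the CpG of the nearest CCGG, against 1.75% of all kept sites, and 14.3% and 9.36% were at 18 and 13 bp, against 1.73% and 1.66%. The means of the gained sites were 3.90% in serum and 37.0% in 2i + Vitamin C. Kept sites within 50 bp of them that were not called gained themselves had means of 5.988% and 5.997%. Neighbours called gained were left out of these means, so whether rises occurred together was not tested.

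The 3 largest gains at 6 bp with at least 100 reads in all 4 libraries are shown with the CCGG and the gained CpG in capitals.
chr5:75970832-75970861: cttagagggcacagCGcccCCGGgatcagc
chr9:110435048-110435077: agccagccagccagCGacgCCGGccgcccc
chr17:84030772-84030801: agaagtactcgttgCGctcCCGGtcgtagt

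The chromosome 5 site was at 1.44% of 347 reads in WT serum, 72.6% of 332 in WT 2i + Vitamin C, 77.1% of 258 in Chr4-cl KO serum and 0.535% of 187 in KO 2i + Vitamin C. The chromosome 9 site was at 1.02%, 69.8%, 66.4% and 0.922% in the same order, and the chromosome 17 site, in the Kcng3 promoter, at 1.49%, 66.7%, 71.9% and 0%, the last of 100 reads, which allows up to 3%. High levels were thus in the libraries whose files were single tables, and low levels in those whose files were joined. Over the 604 gained sites read at least 10 times in all 4 libraries, the means were 3.69%, 35.5%, 38.1% and 3.13%. None of them rose by 20 points or more in KO cells, and 472 fell by as much. The 104680 lost sites behaved otherwise, with means of 77.8%, 31.4%, 82.9% and 29.1%, and 96.1% of them fell by at least 20 points in KO cells as well. The part of file preparation in the gains was not tested.

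**Figure D5:**
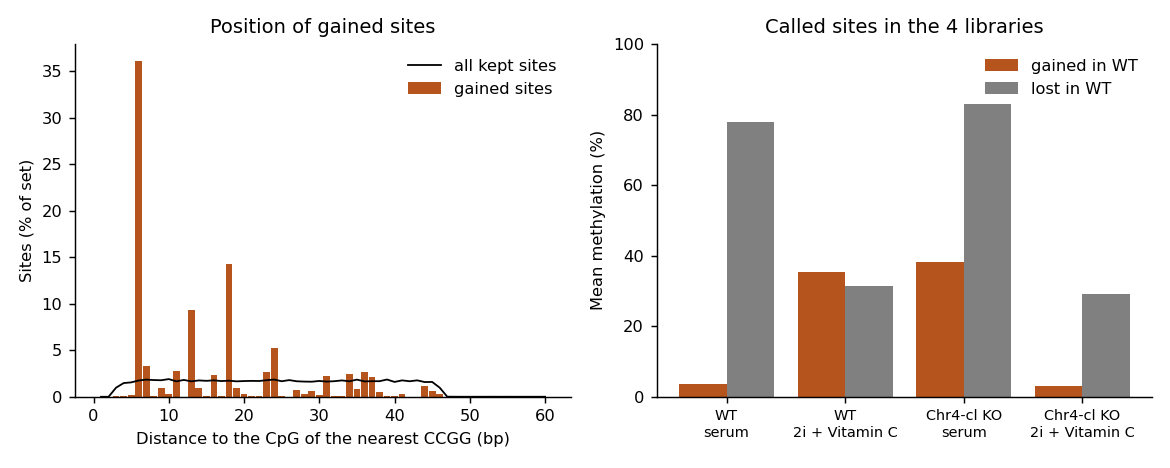
Left, share of gained sites (bars, %) and of all kept sites (line, %) at each distance (bp) from the CpG of the nearest CCGG, with 36.1% of gained sites at 6 bp; sites inside CCGG are left out. Right, mean methylation (%) of the sites gained or lost in WT in each of the 4 libraries (no replicates): gained sites are high in WT 2i + Vitamin C (35.5%) and KO serum (38.1%), lost sites in both serum libraries.

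The gained windows share this limit in part. At chr3:142764001-142765000, 5 sites were at 1.15% (0.493 to 2.67) in serum and 23.0% (18.8 to 27.7) in 2i + Vitamin C, and at 24.5% and 0.637% in KO cells. At chr4:30162001-30163000, 7 sites were at 49.6% (40.8 to 58.4) and 69.9% (60.9 to 77.6) in WT cells, with an adjusted p of 0.00341 by Fisher's exact test, and no KO 2i + Vitamin C reads covered them. Kcng3, a potassium channel subunit, had the largest promoter rise, which was not called and was chosen after its values were seen. It was at 0.936% in serum and 18.8% in 2i + Vitamin C, and 2 of its 12 sites, both 6 bp from the CpG of a CCGG, were called gained.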

How the data were processed

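RRBS-seq libraries of WT and Chr4-cl KO ES cells (1 per medium) were analysed. Trim Galore was used by the authors for trimming and Bismark for alignment to mm9. They deposited, per CpG dyad, the read count, the methylated read count and their ratio as a fraction. Tool versions are not given in the sources used here. Levels were recomputed from the counts. Sites with at least 10 reads in both WT libraries were annotated with mm9 and gencode vM1. Fisher's exact tests with Benjamini-Hochberg adjustment were run over all sites, all promoters and all 1-kb windows; the site test was first run on simulated data. Intervals are 95% Wilson intervals and cover counting error only. Those on pooled sites count a read once at each site it covers, and so are too narrow. Promoters named had at least 5 sites and 100 reads in each library: the 10 largest losses called, the 10 highest remaining shares from 70% in serum, and gains called (5 each for windows); also listed genes and outlying elements. Genes on chromosome 18 are not reported here. Capture probes were placed by their mm9 positions and kept where their sequence matched exactly. Oligo copies were placed with blastn 2.17.0 at 88% identity or more. Python 3.11.15 and scipy 1.17.1 were used. The members and gene lists were chosen with earlier results of these data known, and the groupings by GC, distance, copy number, context and CCGG distance after seeing the data.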

Additional observations from a re-analysis of the deposited data

Results flagged for a closer look

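WT and Chr4-cl KO cells moved in opposite directions under the same change of medium at sites gained in WT: over 604 sites the mean change was 31.8 points in WT and -34.9 points in KO cells. The difference between the genotypes was not tested, since each condition is 1 library. The Kcng3 promoter changed by 17.9 points in WT and -18.9 in KO cells, Trpm3 by 11 and -12.4, and Traf3 by 10.4 and -9.37, also untested and chosen after their values were seen. In each case the higher level was in the libraries deposited as single tables, and the part of this in the changes was not tested.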

How the results depend on the processing

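With 1 library per condition, no replicate could be left out and no spread between cultures was measured, so every p covers read counting only. No paired analysis was possible because each group holds 1 library. Sites chosen for high serum levels partly reflect sampling in that library; with sites chosen by Chr4-cl KO serum instead, the remaining share was 52.2%. The mean change stayed negative, and the intergenic minus exon and X minus autosome differences stayed positive, under each alternative run for them. The cause of the moves below was not tested, except where fewer sites or another threshold gives it by construction.

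With a coverage minimum of 5, the mean change was -18.3 points, the remaining share 53.1%, the intergenic minus exon difference 10.1 points, the X minus autosome difference 14.3 points and the share near IAPLTR1_Mm 74.4%, with 1 window gained. With a minimum of 20, the mean change was -15.8 points, the remaining share 54.5%, the intergenic minus exon difference 10.9 points, the ETn share 74.5% and the IAPLTR1_Mm share 69.8%, with 9176 windows lost and 0 gained. Pooling reads over sites gave -10.6 points, 53.5% remaining, an X minus autosome difference of 13.97 points and an IAPLTR1_Mm share of 70.3%. At sites in all 4 libraries the values were -13.4 points, 54.9%, differences of 11.6 points (intergenic minus exon) and 15.4 points (X minus autosomes), with 103904 sites lost and 596 gained. Without the 0.1% of sites with the highest coverage the mean change was -17.33 points. On autosomes alone it was -17.4 points, with 53.5% remaining and an intergenic minus exon difference of 9.56 points. Without sites inside CCGG it was -14.1 points, with 54.5% remaining, a difference of 11.4 points and 123266 sites lost.

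A threshold of 10 points gave 2674 sites gained, 1196 promoters lost and 5 gained, and 13 windows gained. A threshold of 30 points gave 416 sites and 0 windows gained. Requiring 10 kept sites gave 329 promoters and 1749 windows lost, and 0 windows gained. Trimming internal regions by 250 bp gave an ETn share of 80.6%, and sites within 100 bp of IAPLTR1_Mm copies kept 48.6%, against 72.1% within 200 bp. Thinning both libraries to the smaller coverage at each site gave 175590 sites lost and 818 gained.

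Alternatives chosen after seeing the data bore on the gains. Without sites 6, 13 or 18 bp from the CpG of the nearest CCGG, 365 sites and 1 window were gained, the mean change was -17.66 points and 53.9% remained. Of the calls at sites in all 4 libraries, 104355 lost and 3 gained sites had the same sign in KO cells. At sites with 1 copy of their 32 bases the intergenic minus exon difference was 6.90 points.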
